A study of Mus musculus with 6 samples.

Results

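Genes that haematopoietic stem cells and endothelial cells have in common, 10 in all, were followed in RNA of LSK cells. These are marrow cells sorted as negative for lineage markers and positive for Kit and Sca1, and they hold the stem cells and early progenitors of the blood. The 10 are the receptor genes Tie1 and Tek with the ligand gene Angpt1, the guidance receptor gene Robo4, the surface protein genes Esam, Procr, Emcn and Clec1a, and the signalling genes Fgd5 and Ctnnal1. They were taken by name from the deposited count table, where all 10 were present among 24063 gene symbols and all 10 passed the filter on low counts. Of the 2 groups of C57/BL6 mice, the knockout group (3 libraries) had floxed Arid2 on both alleles and the MxCre transgene, and the control group (3 libraries) had MxCre without the floxed alleles. Arid2 encodes a subunit of the PBAF chromatin remodelling complex. All mice, controls included, were injected at an age of 6 to 8 weeks with pIpC, a double-stranded RNA analogue, and LSK cells were sorted 6 weeks later. MxCre is driven by an interferon-responsive promoter that is active in many cell types of the injected animal, so the model does not limit recombination to LSK cells. The labels do not say which animals gave which library, so the spread between libraries may be partly technical.

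Endothelial and blood stem cells arise from a common embryonic lineage and keep several surface proteins in common. Angpt1, the angiopoietin ligand, activates the receptor kinase Tek (also called Tie2), and Tie1 is a related receptor that modulates Tek. In adult marrow these and the other genes are known from stem cell work: Robo4 from the anchoring of stem cells in their niche, and Esam, Procr, Fgd5 and Ctnnal1 as markers or reporters of stem cells. Angpt1 is secreted, and Fgd5 and Ctnnal1 act inside the cell, so the 10 genes are not all surface proteins.

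Libraries held 12408966 to 24989866 counted reads in the knockout group and 13950708 to 28185678 in the control group. Arid2 itself was at 162, 150 and 155 CPM (read counts scaled to a common library size, with TMM factors) in knockout libraries and 165, 154 and 148 CPM in control libraries. A gene-level count cannot tell a transcript that lacks the floxed exon from a whole one, so this checks neither label, and the groups are named as labelled. The sexes were unequal. Xist and Y-linked counts marked all 3 knockout libraries and control replicate 2 as female and control replicates 1 and 3 as male. A fit with a sex term therefore compares the knockout libraries with control replicate 2 alone. Of the genes of the sort gate, Kit was at 439 ± 11 CPM in knockout and 557 ± 86 CPM in control libraries (SD, n = 3 each). Ly6a, which encodes Sca1, was at 13.5 ± 1.6 CPM in knockout and 20 ± 2.1 CPM in control libraries. Ly6a was itself called lower (log2 fold change −0.56, edgeR adjusted p = 0.0378), and Kit was not (−0.34, edgeR adjusted p = 0.0814). With the sex term Ly6a was at −0.52 and the call was lost. In such bulk samples, fewer cells of a type and less RNA per cell cannot be told apart.

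Of the 10 genes, 5 were lower in knockout libraries (Tie1, Robo4, Ctnnal1, Emcn and Angpt1), 0 were higher, and 5 did not pass the test (edgeR, adjusted p under 0.05 over 13679 symbols). Across all symbols tested, 4.58% were called lower, 3.85% higher and 8.42% in either direction. Also 0 of the 10 were higher at an unadjusted p under 0.05, and DESeq2 and limma-voom called 5 lower and 0 higher. The median log2 fold change of the 10 was −0.47, with values from −1.47 to 0.14, against 0.00 over all symbols tested, and 9 of the 10 were negative against 50.4% of all symbols. With the sex term, 0 of the 10 passed (0.263% of all symbols were called lower and 0.0512% higher), and the median was −0.40. Leaving out a library left 1 gene called without knockout replicate 2, 3 without knockout replicate 1, knockout replicate 3 or control replicate 1, and 4 without control replicate 3. Without control replicate 2 there were 5, with Procr called in place of Emcn.

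**Figure D1:**
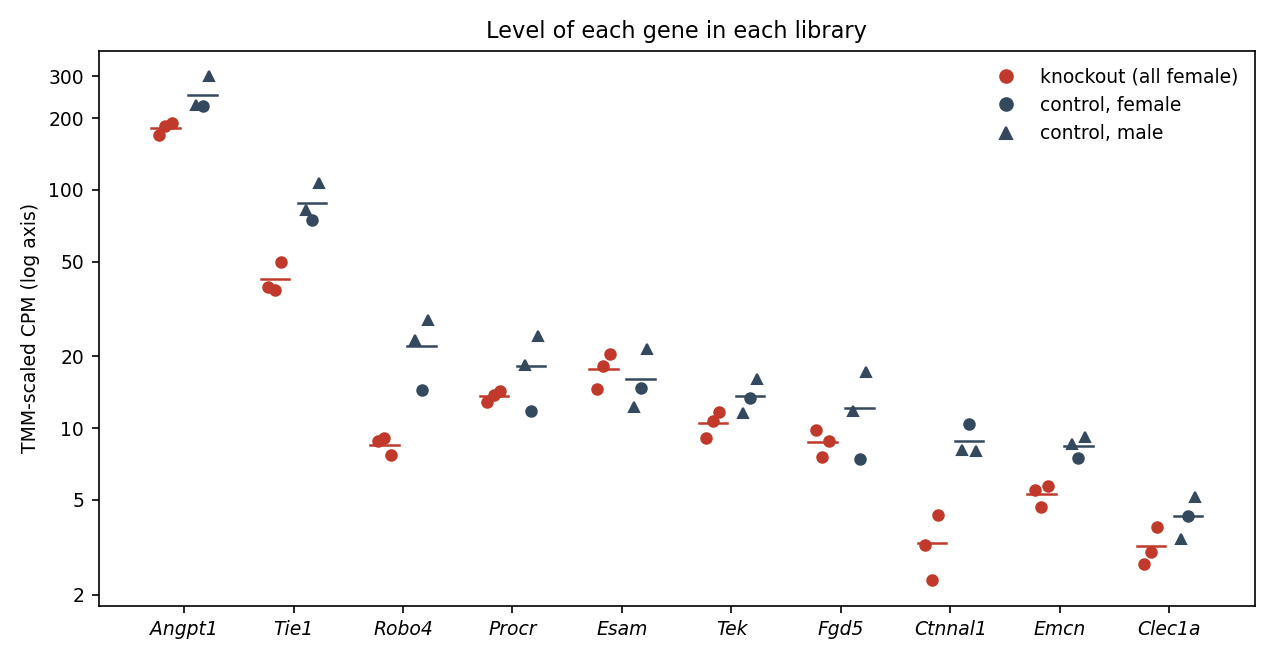
Level of each of the 10 genes in each library, as TMM-scaled CPM on a log axis, with knockout libraries left (red) and control libraries right (dark) of each gene; circles are female and triangles male libraries, and short lines are group means (n = 3). The knockout libraries of Tie1, Robo4, Ctnnal1, Emcn and Angpt1 sit below all control libraries, and those of the other 5 genes overlap them. Across all symbols tested, 16.1% had every knockout library below every control library.

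Levels were compared between genes as RPKM, the CPM divided by the kilobases of exon, since longer transcripts gather more reads. Angpt1 was the most abundant of the 10, at 34.9 ± 1.95 RPKM in knockout and 48.2 ± 8.25 RPKM in control libraries (SD, n = 3 each). Tie1 came next, with 8.59 ± 1.3 RPKM in knockout and 17.9 ± 3.39 RPKM in control libraries. In control libraries Procr (8.94 ± 3.09 RPKM), Esam (5.64 ± 1.67), Robo4 (4.17 ± 1.33) and Tek (2.91 ± 0.487) followed. Esam and Robo4 each differed from the next in that order by less than the larger SD of the pair, and Procr from Esam by slightly more. Fgd5 (1.93 ± 0.777 RPKM), Emcn (1.56 ± 0.153), Ctnnal1 (1.16 ± 0.175) and Clec1a (0.828 ± 0.166) were the lowest in control libraries. In knockout libraries the order below Tie1 was Procr (6.73 ± 0.363 RPKM), Esam (6.2 ± 1.05), Tek (2.22 ± 0.273), Robo4 (1.61 ± 0.138), Fgd5 (1.39 ± 0.182), Emcn (0.978 ± 0.0998), Clec1a (0.616 ± 0.115) and Ctnnal1 (0.429 ± 0.133), so Robo4 stood below Tek and Ctnnal1 below Clec1a.

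The ligand and its receptors are given first. Angpt1 (ENSMUSG00000022309; mm10, chromosome 15, 42424723 to 42676977, minus strand) had 170, 184 and 190 CPM in knockout libraries and 226, 226 and 300 CPM in control libraries. The groups did not overlap, and control replicate 3 stood above the other controls. The log2 fold change was −0.47 (SE 0.11, 95% interval −0.72 to −0.21, edgeR adjusted p = 0.0419), or 72.4% of the control level. A sex term brought it to −0.31, where it did not pass (edgeR adjusted p = 0.474). The call was also lost without knockout replicate 1 (adjusted p = 0.128), 2 (0.124) or 3 (0.0823) or control replicate 1 (0.0646). An antisense gene outside the count table, Gm17473, shares 737 exon bases with Angpt1 on the opposite strand, and whether reads were counted by strand is not given in the sources. Angpt1 lies on the same chromosome as Arid2.

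Tie1 (ENSMUSG00000033191; chromosome 4, 118471191 to 118490061, minus strand) had 39.0, 38.1 and 49.6 CPM in knockout libraries, against 82.6, 74.7 and 107 CPM in control libraries. Every knockout library lay below every control library, of either sex, which held for 16.1% of all symbols tested. Its log2 fold change was −1.06 (SE 0.15, 95% interval −1.40 to −0.72, edgeR adjusted p = 0.00668), or 47.9% of the control level. Tie1 was the sole gene of the 10 called whichever of the 6 libraries was left out (log2 fold change −1.19 to −0.90, adjusted p 0.00623 to 0.0406). With the sex term the log2 fold change was −0.83 (edgeR adjusted p = 0.134).

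Tek (ENSMUSG00000006386; chromosome 4, 94739289 to 94874976, plus strand), the receptor that Angpt1 activates, had 9.09, 10.7 and 11.6 CPM in knockout libraries and 11.6, 13.4 and 16.1 CPM in control libraries. The groups overlapped, knockout replicate 3 standing just above control replicate 1. Tek did not pass the test (log2 fold change −0.39, SE 0.16, 95% interval −0.76 to −0.02, edgeR adjusted p = 0.183), and its value was −0.36 with the sex term.

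Because genes read in the same library have the same depth and scaling, the balance within the Tie system was also taken as a ratio of reads per kilobase, for pairs chosen after their values were seen. The ratio of Tie1 to Tek was 4.11, 3.42 and 4.08 in knockout libraries and 6.85, 5.33 and 6.34 in control libraries. The ratio of Angpt1 to Tie1 was 4.12, 4.57 and 3.62 in knockout libraries and 2.59, 2.85 and 2.66 in control libraries. The groups did not overlap in either ratio, and the mean log2 ratio differed by −0.67 for Tie1 over Tek and by 0.60 for Angpt1 over Tie1 (knockout minus control). A two-sided exact permutation test gave p = 0.1 for each, the smallest that 3 against 3 libraries allow, also after adjustment over the 3 ratios computed. Both ratios restate the fold changes given above, where Tie1 had a lower value than Tek and Angpt1, so they add no separate evidence. Their opposite signs follow from Tie1 being divided in the first ratio and the divisor in the other.

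**Figure D2:**
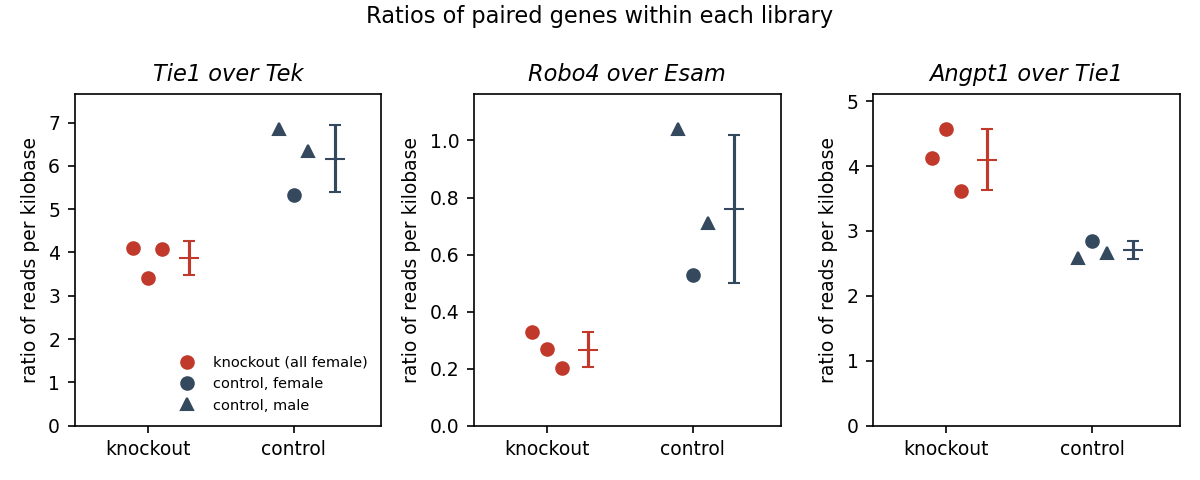
Ratios of reads per kilobase between paired genes in each library, knockout (red) left of control (dark), with circles for female and triangles for male libraries; bars give the mean and SD (n = 3). Tie1 over Tek averaged 3.87 in knockout and 6.17 in control libraries, Robo4 over Esam 0.267 in knockout and 0.761 in control libraries, and Angpt1 over Tie1 4.10 in knockout and 2.70 in control libraries.

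Robo4 (ENSMUSG00000032125; chromosome 9, 37401897 to 37415115, plus strand), a Roundabout receptor, had 8.83, 9.07 and 7.70 CPM in knockout libraries, against 23.5, 14.5 and 28.3 CPM in control libraries. The groups did not overlap, and the female control stood well below both male controls. The log2 fold change was −1.36 (SE 0.23, 95% interval −1.89 to −0.82, edgeR adjusted p = 0.0137), or 39.1% of the control level. It was −0.75 with the sex term (edgeR adjusted p = 0.162), and −1.59 without the female control. The call was lost without knockout replicate 2 (adjusted p = 0.0591).

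Esam (ENSMUSG00000001946; chromosome 9, 37528078 to 37538319, plus strand), an immunoglobulin-family protein of cell junctions, had 14.6, 18.2 and 20.5 CPM in knockout libraries and 12.2, 14.7 and 21.5 CPM in control libraries. The groups overlapped over nearly their whole range. Its log2 fold change of 0.14 (SE 0.21, 95% interval −0.35 to 0.63, edgeR adjusted p = 0.737) was the sole positive value among the 10, and it was −0.02 without control replicate 1.

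Robo4 and Esam are neighbours, with 113 kb between them and 2 other symbols of the table in that stretch, Robo3 and Msantd2. The ratio of Robo4 to Esam was 0.327, 0.270 and 0.203 in knockout libraries and 1.04, 0.530 and 0.712 in control libraries. The groups did not overlap, and the female control had the lowest control ratio. This pair too was chosen after its values were seen. Robo4 was already called lower and Esam was not, so the exact permutation p = 0.1, the smallest possible, adds no separate evidence. Robo3, whose 3′ end lies next to that of Robo4 on the opposite strand, had a log2 fold change of −0.30 (edgeR adjusted p = 0.548), and Msantd2 one of −0.18 (adjusted p = 0.336). Of these 4 neighbouring genes, Robo4 was the sole gene past the test.

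Among the other surface protein genes, Emcn (ENSMUSG00000054690; chromosome 3, 137341067 to 137432185, plus strand), which encodes the sialomucin endomucin, had 5.50, 4.68 and 5.70 CPM in knockout libraries and 8.61, 7.53 and 9.16 CPM in control libraries. The groups did not overlap. The log2 fold change was −0.67 (SE 0.17, 95% interval −1.06 to −0.29, edgeR adjusted p = 0.0458), close to the threshold, and the call was lost whichever of the 6 libraries was left out (edgeR adjusted p 0.0609 without control replicate 2 to 0.163 without knockout replicate 2). It was −0.52 with the sex term (adjusted p = 0.438).

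Procr (ENSMUSG00000027611; chromosome 2, 155751117 to 155755471, plus strand), the receptor of protein C, had 12.9, 13.8 and 14.4 CPM in knockout libraries and 18.4, 11.8 and 24.3 CPM in control libraries. The female control was the lowest of all 6 libraries, and the male controls were the highest. The log2 fold change was −0.40 (95% interval −0.93 to 0.14, edgeR adjusted p = 0.338) but 0.22 with the sex term. Without the female control it was −0.63, where the adjusted p rounded to 0.05 and just passed, and without control replicate 3 it was −0.13 (adjusted p = 0.743).

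Fgd5 (ENSMUSG00000034037; chromosome 6, 91978878 to 92076004, plus strand), an exchange factor for the GTPase Cdc42, had 9.83, 7.54 and 8.83 CPM in knockout libraries and 11.8, 7.46 and 17.2 CPM in control libraries. Here too the female control was the lowest library and the male controls the highest. Its log2 fold change was −0.47 (95% interval −1.11 to 0.18, edgeR adjusted p = 0.351), 0.22 with the sex term, −0.13 without control replicate 3 and −0.72 without control replicate 2 (adjusted p = 0.0864).

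Clec1a (ENSMUSG00000033082; chromosome 6, 129424772 to 129452000, minus strand), a C-type lectin receptor, was the least covered gene, with 48 to 75 reads per knockout library and 56 to 120 per control library. Its level was 2.70, 3.02 and 3.85 CPM in knockout libraries and 3.44, 4.26 and 5.17 CPM in control libraries, with overlap between the groups. The log2 fold change was −0.44 (95% interval −0.99 to 0.11, edgeR adjusted p = 0.306), which at this depth leaves a range from 50.5% to 108% of the control level.

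Ctnnal1 (ENSMUSG00000038816; chromosome 4, 56810935 to 56865188, minus strand), which encodes alpha-catulin, a cytoplasmic relative of the catenins, had the lowest fold change. It had 3.22, 2.30 and 4.33 CPM in knockout libraries, against 8.11, 10.4 and 8.06 CPM in control libraries. These rest on 61, 57 and 54 reads in knockout libraries, about as few as for Clec1a, and 132, 293 and 117 in control libraries. The SD of the knockout libraries was 31.0% of their mean, the largest such share of the 10 genes. No knockout library reached any control library, and the female control was the highest. The log2 fold change was −1.47 (SE 0.25, 95% interval −2.04 to −0.89, edgeR adjusted p = 0.0137), or 36.2% of the control level. It was −1.69 with the sex term (adjusted p = 0.0945), and the call was lost without knockout replicate 2 (log2 fold change −1.25, adjusted p = 0.0526).

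**Figure D3:**
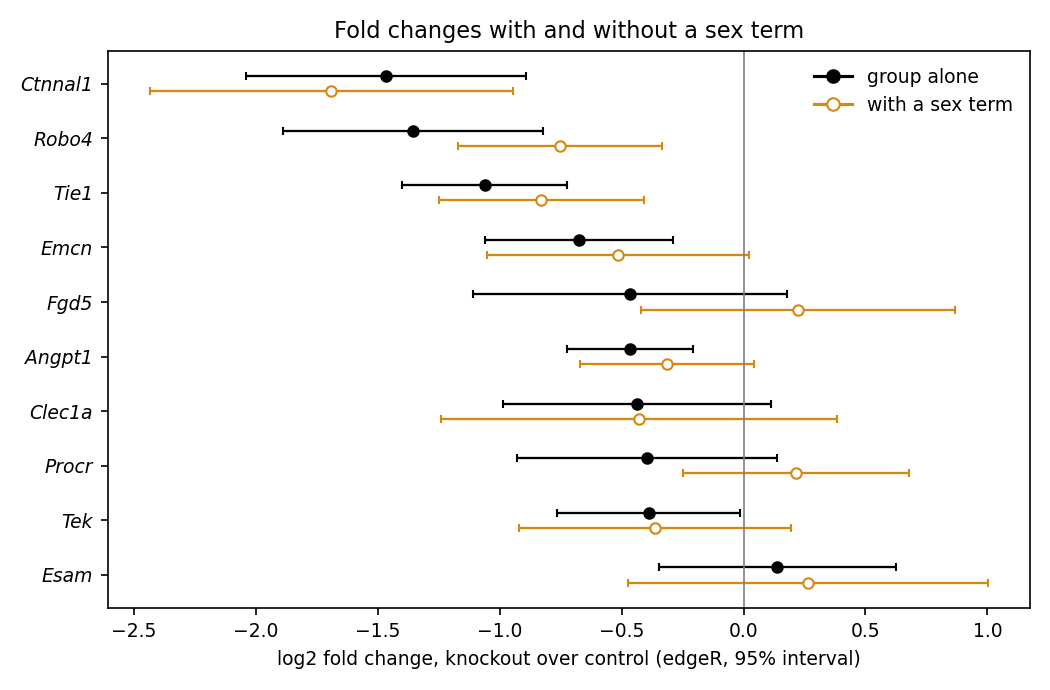
Log2 fold change of each gene, knockout over control, with its 95% interval from edgeR; filled black points are from the fit by group alone and open orange points from the fit with a sex term. Robo4, Fgd5 and Procr moved most towards or past 0 with the sex term (to −0.75, 0.22 and 0.22), while Tek (−0.36) and Clec1a (−0.43) stayed near their first value and Ctnnal1 (−1.69) moved away from 0.

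Fgd5 and Procr differed more between the female and male controls than between the groups. The log2 ratio of the female control to the mean of the male controls was −0.96 for Fgd5, −0.86 for Procr and −0.84 for Robo4. It was −0.34 for Tie1, −0.04 for Tek and −0.01 for Clec1a, and 0.36 for Ctnnal1, the sole gene of the 10 where the female control was the highest. With a single female control, sex and the library cannot be told apart. Control replicate 3 was the highest control for 9 of the 10 genes, against 37.6% of all symbols tested, and knockout replicate 3 the highest knockout library for 8 of 10, against 37.7%. The summed level of the 10 genes was 276, 292 and 317 CPM in knockout libraries and 406, 384 and 537 CPM in control libraries. Without Angpt1 the sums were 106, 107 and 127 CPM in knockout libraries and 180, 159 and 237 CPM in control libraries, which do not overlap.

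**Figure D4:**
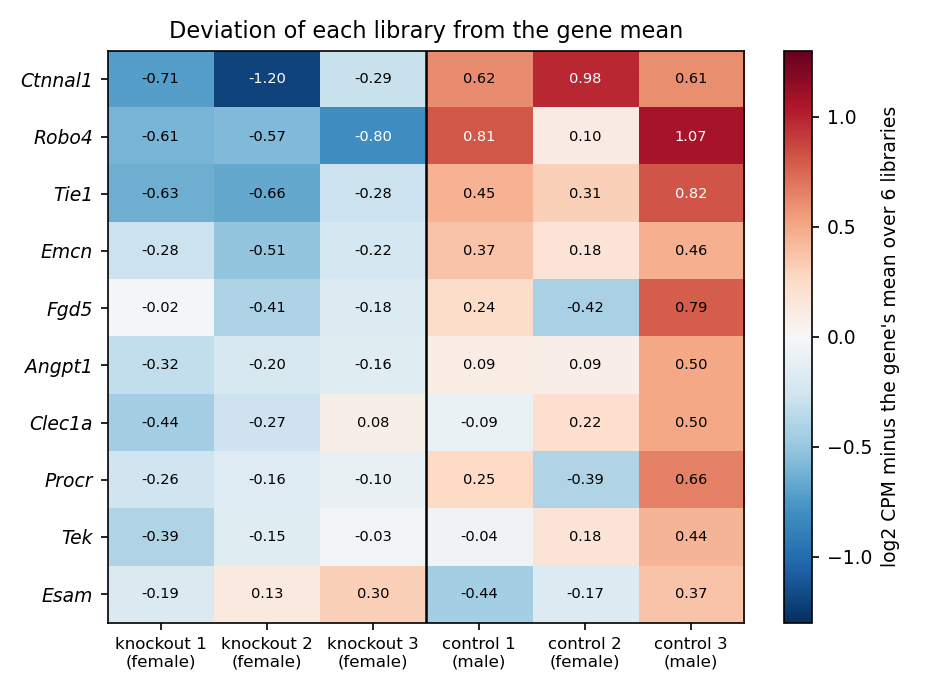
Log2 CPM of each gene in each library minus the gene's mean over the 6 libraries, knockout left and control right of the line, ordered by fold change. Control replicate 3 is the highest control library in every row but that of Ctnnal1, and control replicate 2 is below the gene mean for Fgd5 (−0.42), Procr (−0.39) and Esam (−0.17).

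To show what stands before the start sites of genes that fell, the bases upstream of Tie1, Robo4, Emcn and Ctnnal1 are printed with those of Tek, the relative of Tie1 that did not pass the test. RefSeq promoters (GRCm38.p6) were found for 7 of the 10 genes, and the 250 bases before each start were searched on both strands for 5 motifs: AGGAAG and the form CCGGAA of the ETS factors, the GATA motif AGATAA, the RUNX motif TGTGGT and the E-box CAGCTG. Capitals mark matches on either strand, and bases inside a GENCODE exon are left out.
Tie1 (minus strand, chr4:118490062-118490099): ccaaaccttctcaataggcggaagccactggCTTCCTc
Tek (plus strand, chr4:94739039-94739288): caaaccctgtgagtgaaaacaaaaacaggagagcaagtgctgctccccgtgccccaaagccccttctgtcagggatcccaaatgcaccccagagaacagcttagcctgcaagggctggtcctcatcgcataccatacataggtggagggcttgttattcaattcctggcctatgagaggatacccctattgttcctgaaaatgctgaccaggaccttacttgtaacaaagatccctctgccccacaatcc
Robo4 (plus strand, chr9:37401722-37401896): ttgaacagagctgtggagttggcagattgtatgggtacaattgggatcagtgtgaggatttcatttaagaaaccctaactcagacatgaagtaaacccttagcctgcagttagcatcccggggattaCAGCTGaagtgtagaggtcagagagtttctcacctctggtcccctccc
Emcn (plus strand, chr3:137340828-137341066): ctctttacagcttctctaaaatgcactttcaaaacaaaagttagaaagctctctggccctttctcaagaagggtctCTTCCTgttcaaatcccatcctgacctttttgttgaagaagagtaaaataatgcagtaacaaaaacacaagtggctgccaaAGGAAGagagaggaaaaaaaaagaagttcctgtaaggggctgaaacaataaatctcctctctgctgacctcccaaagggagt
Ctnnal1 (minus strand, chr4:56865212-56865461): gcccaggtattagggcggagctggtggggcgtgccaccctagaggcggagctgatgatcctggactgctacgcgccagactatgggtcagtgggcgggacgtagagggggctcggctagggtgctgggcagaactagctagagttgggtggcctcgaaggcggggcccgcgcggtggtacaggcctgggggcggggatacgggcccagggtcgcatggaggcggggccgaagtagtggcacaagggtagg
AGGAAG was found in 4 of the 7 windows (Tie1, Robo4, Emcn and Fgd5), against 29.5% of all 32851 promoter windows. Counted from the RefSeq start, it lies 219 bases before that of Tie1 on the opposite strand and 93 and 174 bases before that of Emcn. For Robo4 it lies 49 bases before the RefSeq start, in the part not printed. The RefSeq start of Tie1 lies 212 bases inside the GENCODE gene whose coordinates are given above, so those 212 bases are not printed. CAGCTG was found for Robo4, 123 bases before the start, and for Procr, against 13% of all windows. The CCGGAA form, the GATA motif and the RUNX motif were in 0 of the 7 windows, against 12%, 10% and 14% of all windows. Ctnnal1, with the lowest fold change, and Tek held none of the 5 motifs.

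The other genes of each pathway were counted from lists chosen with earlier results of these data known, and no list was tested as a set. Of 19 further angiopoietin and Tie signalling genes tested, 1 was higher and 18 did not pass, with a median log2 fold change of 0.13. Pik3cb, a catalytic subunit of PI3-kinase, was the gene past the test, with 64.8 ± 4.4 CPM in knockout and 41.4 ± 5.3 CPM in control libraries (log2 fold change 0.64; the sex term gave 0.495 and no call). The other ligand genes were scarcely read: Angpt2 reached at most 1.22 CPM in any library, and Angpt4 and the phosphatase gene Ptprb, whose product acts on Tek, failed the filter on low counts. Akt1, Pik3ca, Pik3r1 and Grb2, which relay signals from Tek, had log2 fold changes of −0.06, 0.00, 0.01 and 0.00, none past the test.

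Of 17 Slit and Robo pathway genes tested, 2 were lower and 15 did not pass, with a median log2 fold change of −0.04. The 2 were the adaptor gene Nck2 (log2 fold change −0.40) and the kinase gene Abl1 (−0.28), neither past the test with the sex term. Slit1, Slit2 and Slit3, the ligand genes, stayed below 1 CPM in every library and failed the filter, as did Robo1, Robo2 and Unc5b, so Robo4 and Robo3 were the Robo genes measured.

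Of 15 genes of the protein C and thrombin receptor pathway tested, 2 were lower and 13 did not pass, with a median log2 fold change of −0.25. Tfpi, which encodes the inhibitor of tissue factor, had 3.44, 3.07 and 7.30 CPM in knockout libraries, against 27.0, 29.1 and 25.8 CPM in control libraries. Its log2 fold change was −2.63 (SE 0.28, edgeR adjusted p = 0.00345), larger in size than that of any of the 10 genes, and −2.72 with the sex term, where it still passed (adjusted p = 0.0467). The thrombin receptor gene F2rl3 was also lower (−0.90; the sex term gave −0.63 and no call), while F2r, with −0.88, did not pass (edgeR adjusted p = 0.0849). Thbd, which encodes the thrombomodulin that activates protein C, had −0.29 (adjusted p = 0.241), and Proc was at 0 reads in 5 of 6 libraries.

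In the families of the remaining genes, most members did not pass the test. Of 9 genes of the sialomucin list tested, 2 were lower, among them Cd34 (428 ± 55 CPM in knockout and 616 ± 37 CPM in control libraries, log2 fold change −0.53), and the median was −0.04. Of 9 junction adhesion genes 1 was lower, Mllt4 (−0.70), which encodes the scaffold afadin, with a median of −0.17. FGD and Cdc42 genes had Fgd1 lower (−0.52) and Fgd3 higher (0.31) of 18, with a median of 0.15. The C-type lectin genes that flank Clec1a had a median of 0.41 over 10, with Clec7a, the receptor dectin-1, higher (1.09) and Gabarapl1, which is no lectin gene, lower (−0.48). Catenin genes had Ctnnd1 higher (0.39) and Ctnnb1 lower (−0.27) of 9, with a median of −0.01. None of these calls was kept with the sex term.

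**Figure D5:**
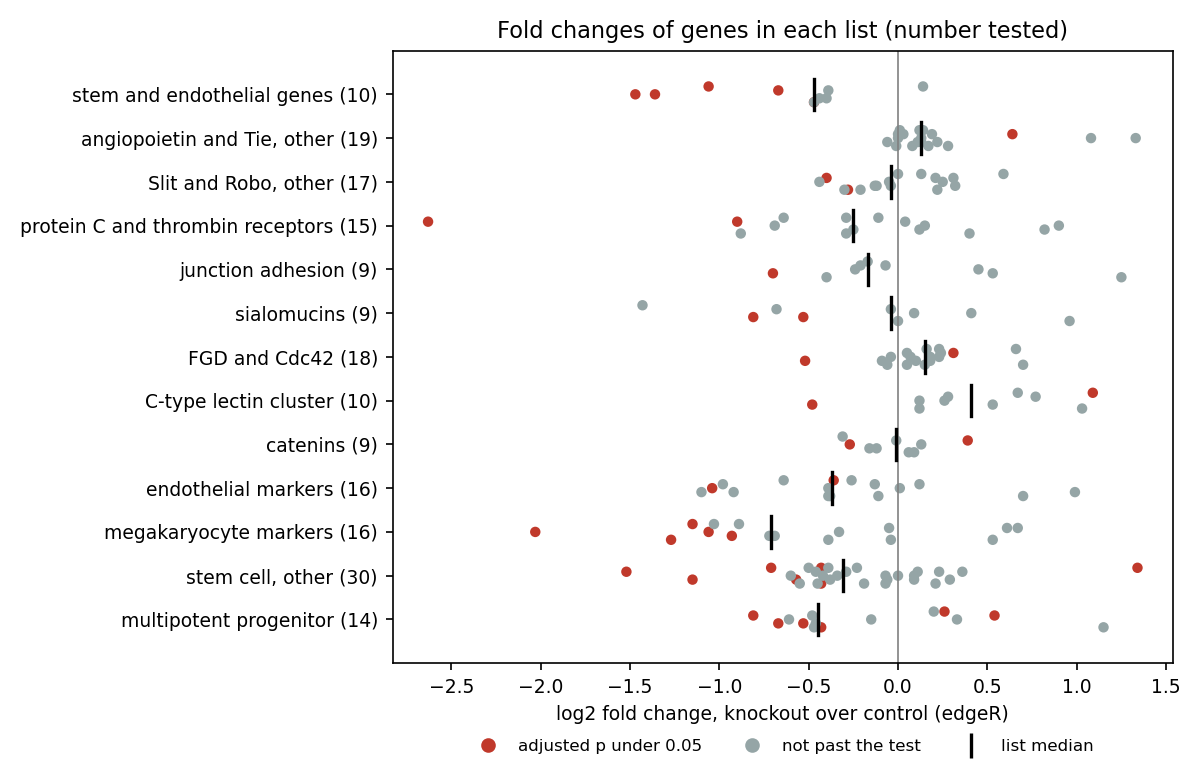
Log2 fold change, knockout over control, of each tested gene in the 10-gene group and in 12 other lists (number tested in brackets), with red points past the test, grey points not past it and a black line at the list median. The median was −0.47 for the 10 genes, 0.13 for other angiopoietin and Tie genes, −0.37 for endothelial markers, −0.71 for megakaryocyte markers and −0.31 for other stem cell genes.

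Markers of cells that could carry the same genes were read in the same libraries. Of 25 endothelial markers, 16 were tested, of which 2 were lower (Egfl7, a secreted vascular protein gene, log2 fold change −1.04, and the ETS factor gene Erg, −0.36) and 14 did not pass, with a median of −0.37. Their summed level was 559 to 624 CPM in knockout and 674 to 821 CPM in control libraries, carried by genes that blood cells also express, such as Pecam1, Eng and Erg. Neither the call of Egfl7 nor that of Erg was kept with the sex term (log2 fold change −0.65 for Egfl7, edgeR adjusted p = 0.0621, and −0.21 for Erg, adjusted p = 0.44). Several markers of the list were at or near 0: Cdh5 reached at most 0.401 CPM, Cldn5 0.344 CPM and Sox17 0.0807 CPM in any library, and Mmrn2 had no read. Of the 16 tested, 12 had negative and 4 positive values. Negative values short of the threshold included Aplnr (log2 fold change −1.1), Kdr (−0.98), Flt4 (−0.92), Icam2 (−0.39) and Vwf (−0.39). For Aplnr and Flt4, at most 1.29 CPM in any library, every knockout library lay below every control library, as for 16.1% of all symbols. None of the positive values passed the test. Plvap had 6.39, 9.8 and 12.7 CPM in knockout libraries and 4.36, 4.16 and 5.99 CPM in control libraries (log2 fold change 0.99, edgeR adjusted p = 0.0588). Flt1 had 10.6, 7.3 and 9.87 CPM in knockout libraries and 5.78, 6.08 and 5.1 CPM in control libraries (log2 fold change 0.70, edgeR adjusted p = 0.0572). For Plvap and Flt1 every knockout library lay above every control library, as for 15.1% of all symbols. Stab1 was at 10.8, 13.1 and 25 CPM in knockout libraries and 9.65, 12.6 and 26 CPM in control libraries. The part of endothelial cells in the values of the 10 genes was not tested. Kdr, the main VEGF receptor gene, was at 0.528, 0.928 and 1.36 CPM in knockout libraries and 0.922, 2.13 and 2.34 CPM in control libraries.

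Of 16 megakaryocyte and platelet markers tested, 5 were lower, among them Ppbp, Gp1ba, Gp9 and Itga2b, and 11 did not pass, with a median log2 fold change of −0.71, and their summed level was 515 to 636 CPM in knockout and 690 to 836 CPM in control libraries. Of the 16, 13 had negative and 3 positive values, and none of the 5 calls was kept with the sex term. Of the defining platelet chemokine genes, Ppbp was at most 1.28 CPM in any library, and Pf4 was at 9.09, 15.6 and 32.5 CPM in knockout libraries and 25.3, 33.1 and 34.2 CPM in control libraries. The part of these cells in the values of the 10 genes was not tested.

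Of 30 further genes known from stem cells, 6 passed the test as lower and 1 as higher, with a median log2 fold change of −0.31 and summed levels of 2460 to 2650 CPM in knockout and 3020 to 4020 CPM in control libraries. Of the 30, 22 had negative and 8 positive values. Positive values short of the threshold included Vldlr (log2 fold change 0.36), Cdkn1c (0.29), Mecom (0.23) and Mllt3 (0.21). Among those called lower were Fhl1 (log2 fold change −1.52), Gata2 (−0.71), Gpr56 (−0.57), Meis1 (−0.43) and Cd27 (−0.43), and Hoxb5 was called higher (1.34). With the sex term none of these calls was kept, and Meis1 was at −0.22. Of 14 multipotent and lymphoid-primed progenitor genes, 4 were lower, among them Flt3, Cd34 and Cd27, and 2 higher (Cd52 and Cd53), with a median of −0.45, and none of the 6 calls was kept with the sex term. Among mature cells, 9 of 17 neutrophil, monocyte and macrophage genes and 5 of 10 erythroblast genes were higher, 2 of 7 mast cell and basophil genes and 2 of 12 lymphocyte genes were lower, and stroma markers had 1 of 8 in each direction; the rest did not pass. Of these calls in mature cell and stroma lists, the sex term kept that of the lymphocyte gene Cd79b (log2 fold change −1.15, edgeR adjusted p = 0.0487) and no other. The neutrophil, monocyte and macrophage genes summed to 9700 to 11600 CPM in knockout and 4260 to 7280 CPM in control libraries, and the part of this gap in the values of the 10 genes was not tested.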

How the data were processed

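RNA was sequenced in 6 libraries, 3 per group, made from poly(A)-selected RNA with a strand-specific kit, per the labels' protocols. The values are raw read counts per gene symbol, whole numbers that the authors deposited without normalization; STAR and mm10 are named in the submitters' processing notes, and the sources do not name the counting tool, the annotation or the strand setting. Of 24063 symbols, 4092 had no read. No library repeated another within sampling noise.

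The test was edgeR's (version 4.0.16, R 4.3.3) on these counts (filterByExpr with a minimum count of 10 and total of 15, leaving 13679 symbols; TMM scaling; quasi-likelihood F test, group as the sole term; Benjamini-Hochberg adjustment over all symbols, threshold 0.05). The SE is the log2 fold change divided by the square root of F. CPM are TMM-scaled, and RPKM divide these by the union of exons in GENCODE M21 (GRCm38). Intervals cover the spread between libraries as modelled. The scripts were tested on simulated data.

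Alternatives were 2 other library scalings (DESeq2 size factors, upper quartile), other filters, DESeq2 1.42.0, limma-voom (limma 3.58.1), the replicate number as a block, a sex term, female libraries alone, each library left out, and other thresholds. Libraries with over 100 CPM of Xist were taken as female.

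The 10 genes and all lists were chosen with earlier results of these data known. Named genes are the 10, Arid2, and from each other list the 3 with the smallest p and any past the threshold; further genes were named after their values were seen. Some genes counted in the lists are not reported here by name.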

Additional observations from a re-analysis of the deposited data

How the results depend on the processing

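Of 150 values of the 10 genes under 15 alternatives each, 122 kept their direction and side of the threshold, 22 kept the direction but not the call, 1 gained a call and 5 changed sign. All 22 lost calls fell on the 5 genes called lower, since for the other 5 keeping their side meant staying uncalled. Tie1 was called in 13 of its 15 alternatives, Robo4 and Ctnnal1 in 12 each, Angpt1 in 9 and Emcn in 7. The sign changes were Procr at 0.215 and Fgd5 at 0.224 with the sex term, 0.213 and 0.221 in female libraries alone, and Esam at −0.023 without control replicate 1 (up to 0.387 without control replicate 3). Arid2, near 0, changed sign with upper-quartile scaling (−0.022), with no filter (−0.002), and in fits that leave out a library, which gave −0.032 to 0.044 (−0.028 without knockout replicate 1). The 5 genes called lower became 0 with the sex term and in female libraries alone, and 3 with a minimum absolute log2 fold change of 1. Over the fits that leave out a library, 1 to 5 of the 10 genes were called lower, the 5 including Procr in place of Emcn. The median of the 10 genes ran from −0.678 (without control replicate 2) to −0.306 (without control replicate 3).

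Over all symbols, 526 were called higher and 626 lower. These became 7 and 36 with the sex term, 10 and 29 in female libraries alone, 951 and 1051 at an adjusted p under 0.1, and 134 and 201 with a minimum absolute log2 fold change of 1. DESeq2 called 816 higher and 835 lower. Leaving out a library gave 119 to 440 higher and 171 to 544 lower. With the replicate number as a block, 1169 were higher and 1003 lower, and the 10 genes still had 5 lower. Deviations of same-numbered libraries correlated at 0.357 (replicate 1), 0.003 (replicate 2) and 0.381 (replicate 3). Those of unlike-numbered libraries correlated at −0.375 to 0.061. Deviations were taken from the group mean, so they cancel within a group and the unlike-numbered values are no independent baseline. The labels name no pairs and replicate 2 showed no shared deviation, so the main fit has no block. Whether replicates 1 and 3 carry an effect shared between the groups was not tested. The cause of these shifts was not tested. Clec1a had the fewest reads of the 10 genes (48 to 120 per library), and Ctnnal1 had similarly few in knockout libraries (54 to 61). A single female control limits every value with the sex term.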
